A study of Mus musculus with 12 samples.

Results

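The 10 genes described here encode enzymes and a chaperone that finish collagen: the lysyl oxidases Lox, Loxl1, Loxl2, Loxl3 and Loxl4, the lysyl hydroxylases Plod1, Plod2 and Plod3, the prolyl hydroxylase subunit P4ha1 and the collagen chaperone Serpinh1. They were chosen by gene name, and all 10 were found among the 78334 rows of the count table and had enough counts to be tested. Poly(A) RNA of mouse left ventricle was sequenced in 12 libraries, 1 per animal and 4 per group. UNX/DOCA ITF2357 mice had UNX/DOCA surgery (a kidney removed and the mineralocorticoid deoxycorticosterone acetate given, used to induce diastolic dysfunction), and from 4 weeks later ate chow containing ITF2357 (givinostat), an inhibitor of histone deacetylases, for 4 weeks. UNX/DOCA vehicle mice had the same surgery and Sham vehicle mice a sham operation, and both ate normal chow. No sham-operated group received ITF2357, so the drug was compared only on the UNX/DOCA background, and the labels do not state strain, sex or age. Levels are in CPM, the share of a library's counts scaled by TMM so that libraries compare, and library values are listed in the order of replicates 1 to 4.

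Collagen chains are hydroxylated on proline and lysine in the endoplasmic reticulum, folded into a triple helix with the help of a dedicated chaperone, and secreted. Outside the cell, copper-dependent lysyl oxidases oxidize lysine and hydroxylysine residues, which then form the covalent cross-links that make collagen and elastic fibres stiff and hard to digest. In the heart these enzymes come largely from fibroblasts and vessel wall cells, and collagen cross-linking is studied as a contributor to stiffness of the ventricle.

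The catalytic domain that the lysyl oxidases share holds a copper-binding stretch with 3 histidines, each separated by 1 residue. It is shown for Loxl1 to Loxl4, because these paralogs differed in their values and their reads have to be told apart. Each line gives 60 bases of coding sequence, 5′ to 3′, from the GRCm38 reference transcripts (GENCODE M21), with the 3 histidine codons in capitals. The stretch spans 2 exons in each gene: exons 3 and 4 of Loxl1 (chr9:58293693-58294381, minus strand), exons 10 and 11 of Loxl2 (chr14:69682316-69689064, plus strand), exons 10 and 11 of Loxl3 (chr6:83049995-83050152, plus strand) and exons 11 and 12 of Loxl4 (chr19:42598780-42599899, minus strand).
Loxl1: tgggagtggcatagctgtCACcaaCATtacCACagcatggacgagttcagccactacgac
Loxl2: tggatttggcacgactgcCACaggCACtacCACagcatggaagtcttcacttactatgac
Loxl3: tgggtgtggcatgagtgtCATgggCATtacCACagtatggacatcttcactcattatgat
Loxl4: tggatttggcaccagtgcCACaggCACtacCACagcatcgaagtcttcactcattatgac
Loxl2 and Loxl4 were identical at 55 of these 60 bases (91.67%), the closest pair, and Loxl1 and Loxl4 at 40 (66.67%), the most distant. Over the whole coding sequences, no pair of the 4 genes shared a run of 50 identical bases, against reads of 150 bases. Lox was not compared, so this does not cover its reads against those of Loxl1 or the other paralogs.

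Per kilobase of exon, Serpinh1 was the most abundant of the 10 in every group, at 48.4 ± 4.33 CPM per kb in UNX/DOCA ITF2357, 68.1 ± 10.7 in UNX/DOCA vehicle against 74.8 ± 12.9 in Sham vehicle (SD, n = 4 each). P4ha1 came next in order of the mean and Plod1 after it: in UNX/DOCA ITF2357 they stood at 17.2 ± 2.90 and 15.8 ± 1.58 CPM per kb, within their spread of each other. Plod2, Plod3 and Loxl1 lay between 5.05 and 8.75 CPM per kb as group means, Plod3 having the highest of the 3 in each group while the order of Loxl1 and Plod2 differed between groups. Loxl2 and Lox followed, and Loxl3 and Loxl4 were lowest, with Loxl4 at 0.363 ± 0.114 CPM per kb in UNX/DOCA ITF2357, 0.363 ± 0.107 in UNX/DOCA vehicle against 0.273 ± 0.0925 in Sham vehicle. The lowest count of any of the 10 genes in a library was 15 reads.

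Loxl1 supplied the largest share of lysyl oxidase reads per kilobase in every group, at 48.4% ± 7.42 in UNX/DOCA ITF2357, 48.8% ± 2.96 in UNX/DOCA vehicle against 55.3% ± 5.82 in Sham vehicle (SD, n = 4). Loxl2 held 22.2% to 25.3% of the family in UNX/DOCA ITF2357 libraries, 28.5% to 31.8% in UNX/DOCA vehicle libraries and 20.9% to 28.6% in Sham vehicle libraries. The ITF2357 range lay under that of UNX/DOCA vehicle and did not meet it. Lox held 7.67% to 26.3% in UNX/DOCA ITF2357, 8.80% to 17.6% in UNX/DOCA vehicle and 7.02% to 14.1% in Sham vehicle. Its SD was the largest of the 5 lysyl oxidases in UNX/DOCA ITF2357 (8.63 percentage points) and UNX/DOCA vehicle (4.57), while in Sham vehicle that of Loxl1 was. Among the lysyl hydroxylases Plod1 held 53.7% ± 1.12, 52.0% ± 4.15 and 56.4% ± 2.04 in UNX/DOCA ITF2357, UNX/DOCA vehicle and Sham vehicle. In the same order of groups Plod2 held 22.5%, 20.8% and 19.9%, and Plod3 held 23.7%, 27.2% and 23.6%. These shares are descriptions and were not tested.

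**Figure D1:**
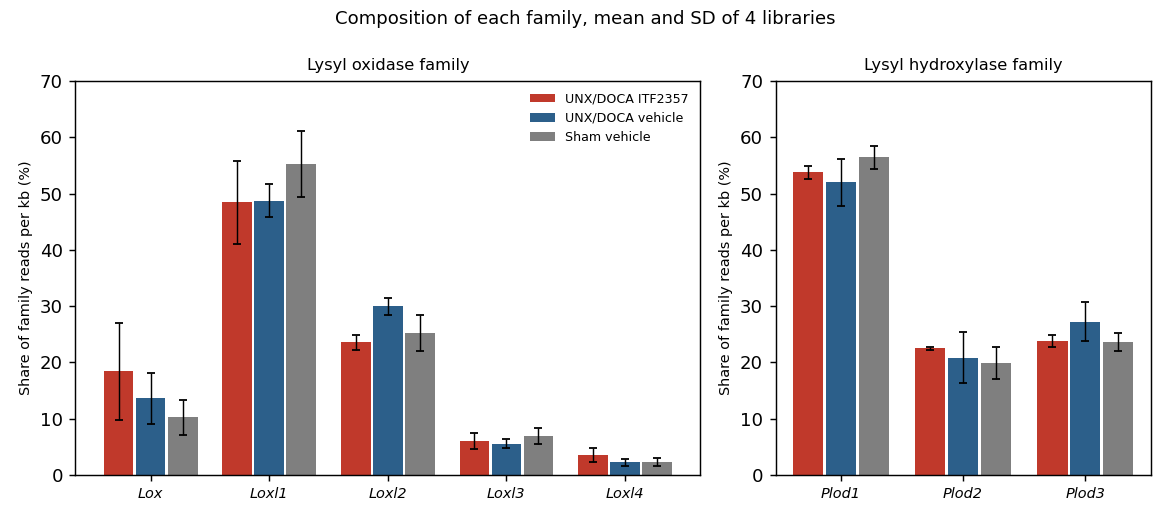
Share of each paralog in the summed reads per kilobase of its family, in percent, for the lysyl oxidases (left) and lysyl hydroxylases (right); bars are means and error bars SD of 4 libraries per group. Loxl1 is the largest lysyl oxidase in each group, and the Loxl2 bar stands at 23.5% in UNX/DOCA ITF2357, 29.9% in UNX/DOCA vehicle against 25.2% in Sham vehicle.

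The comparison of UNX/DOCA ITF2357 with UNX/DOCA vehicle asks what the inhibitor did in hearts with the same surgery. Loxl2 and Loxl1 were lower with ITF2357 past the test's threshold, and none of the 10 genes was higher. In bulk tissue, fewer cells of a type and less RNA per cell cannot be told apart. A gene counts as called when edgeR's quasi-likelihood test, adjusted over all 16981 genes tested, gives a p below 0.05. That made 0 of 10 higher and 2 of 10 lower, where 0.459% of all genes were called higher and 0.442% lower. At an unadjusted p below 0.05 it was 0 of 10 higher and 5 of 10 lower, where 8.7% of all genes were higher and 9.8% lower. The log2 fold change was below 0 for all 10 (49.8% of all genes were above 0), with a median of -0.30 (all genes -0.00). The groups did not overlap, with every ITF2357 library lower, for Loxl1, Loxl2, Loxl3 and Serpinh1, 4 of 10, where 4.36% of all genes did so and 4.95% did so with every ITF2357 library higher.

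Loxl2, a lysyl oxidase with scavenger receptor domains that acts on type IV collagen of basement membranes and on fibrillar collagen, stood at 11.6, 16.9, 11.2 and 14.4 CPM in UNX/DOCA ITF2357, at 28.8, 19.9, 31.7 and 26.0005 CPM in UNX/DOCA vehicle and at 11.6, 15.95, 16.3 and 19.1 CPM in Sham vehicle. All ITF2357 libraries lay under all UNX/DOCA vehicle libraries and overlapped those of Sham vehicle. Loxl2 fell by 0.97 ± 0.18 on the log2 scale with ITF2357 against UNX/DOCA vehicle (SE, n = 4 each, edgeR adjusted p = 0.0349), to 13.5 ± 2.67 CPM against 26.6 ± 5.01 CPM (SD). The call was lost, at adjusted p between 0.0507 and 0.0997, when any one of UNX/DOCA ITF2357 replicates 1, 3 and 4, UNX/DOCA vehicle replicates 3 and 4 or Sham vehicle replicates 2 and 3 was left out. Over the 12 fits without 1 library, the log2 fold change of Loxl2 stayed between -1.10 and -0.89. The number of calls over all genes moved as well. It was 78 higher and 75 lower with all libraries and 7 and 7 without UNX/DOCA ITF2357 replicate 1. Without UNX/DOCA vehicle replicate 1, where Loxl2 stayed called, it was 105 and 138. The Loxl2 call was also lost in a fit of only the 2 groups (adjusted p = 0.0966). Leaving out UNX/DOCA vehicle replicates 3 and 4 together, which held the highest neutrophil marker sums, gave a log2 fold change of -0.85 at an edgeR adjusted p of 0.235, with 2 libraries remaining in that group.

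Loxl1, which is directed to elastic fibres and is needed to renew them, stood at 17.4, 17.6, 15.8 and 15.8 CPM in UNX/DOCA ITF2357, at 28.7, 19.8, 32.0 and 25.2 CPM in UNX/DOCA vehicle and at 21.1, 21.7, 16.7 and 24.4 CPM in Sham vehicle. The 4 ITF2357 libraries were close together and below every UNX/DOCA vehicle library, the nearest being replicate 2. Loxl1 fell by 0.67 ± 0.14 on the log2 scale (SE, edgeR adjusted p = 0.0496), to 16.7 ± 0.956 CPM with ITF2357 against 26.5 ± 5.20 CPM in UNX/DOCA vehicle (SD, n = 4 each). This call sat at the threshold: it held without UNX/DOCA vehicle replicate 2 (adjusted p = 0.0212) and was lost without any other single library, at adjusted p between 0.0507 and 0.126. It was also lost under RLE scaling (adjusted p = 0.0505), upper-quartile scaling (0.0528) and library totals (0.0717). The same held for limma-voom (0.0613) and a fit of only the 2 groups (0.132). The call stayed with no filter, with the filter of 1 CPM in 4 libraries and in DESeq2. Over the 12 fits without 1 library, the log2 fold change of Loxl1 lay between -0.78 and -0.57. Without UNX/DOCA vehicle replicates 3 and 4 together it was -0.55 (adjusted p = 0.254).

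Loxl3, another paralog with scavenger receptor domains, stood at 2.85, 2.82, 3.34 and 2.57 CPM in UNX/DOCA ITF2357, at 3.71, 3.46, 5.73 and 3.74 CPM in UNX/DOCA vehicle and at 4.14, 3.88, 3.20 and 3.32 CPM in Sham vehicle. The drug and vehicle groups did not overlap, but the log2 fold change of -0.52 ± 0.18 did not pass (edgeR adjusted p = 0.153). Of the Loxl3 exons 11.62% overlap exons of Htra2 on the opposite strand, and Htra2 had 3891 reads over the 12 libraries against 1205 for Loxl3. The sources used here do not say whether counting used strand, and without it the reads of both genes there cannot be told apart.

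Lox, the founding enzyme of the family and the main cross-linker of type I and III collagen, stood at 3.36, 14.4, 6.82 and 14.5 CPM in UNX/DOCA ITF2357, at 7.05, 10.8, 9.72 and 14.0 CPM in UNX/DOCA vehicle and at 3.46, 4.89, 7.12 and 7.05 CPM in Sham vehicle. Libraries within the ITF2357 group differed more than the groups did. The ITF2357 against UNX/DOCA vehicle log2 fold change was -0.09, with a 95% interval from -0.95 to 0.78, which holds changes of over 1.5-fold in either direction. Loxl4, the least abundant, stood at 1.85, 1.09, 1.15 and 2.03 CPM in UNX/DOCA ITF2357, at 1.89, 0.937, 1.41 and 1.87 CPM in UNX/DOCA vehicle and at 0.570, 1.40, 1.27 and 1.36 CPM in Sham vehicle. These groups overlapped, and the ITF2357 against UNX/DOCA vehicle log2 fold change was -0.01 with an interval from -0.69 to 0.68.

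**Figure D2:**
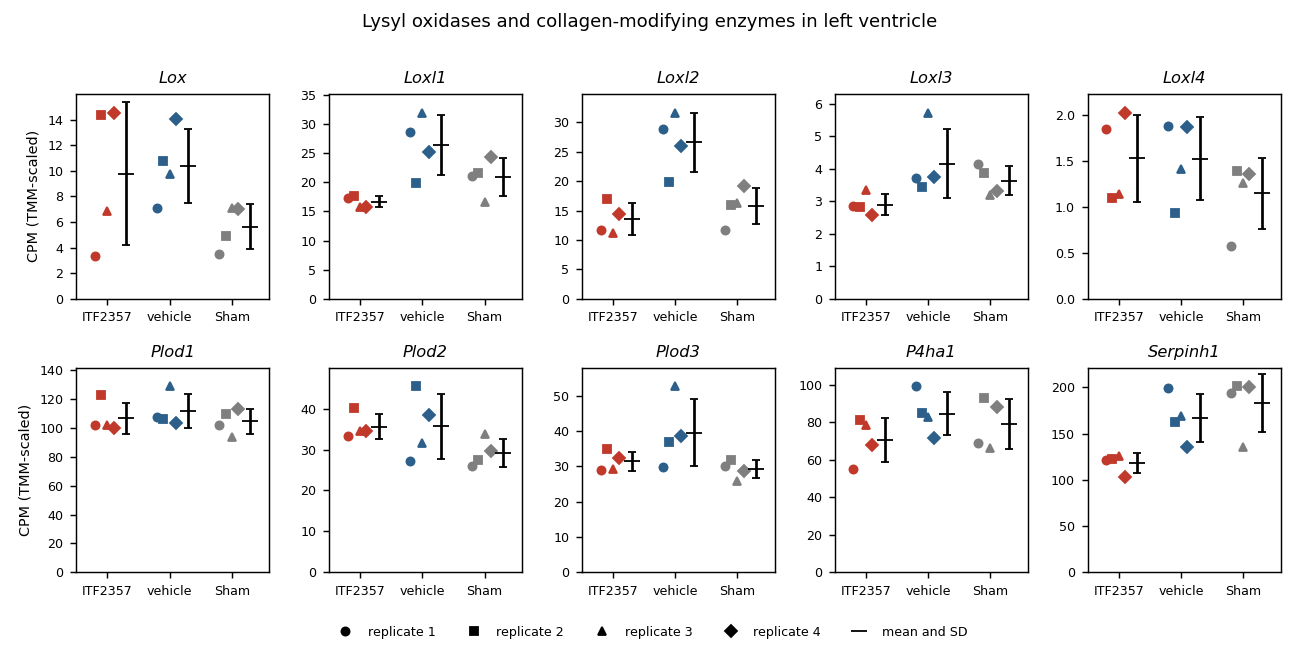
TMM-scaled CPM of each of the 10 genes in every library, with 1 symbol per replicate, for UNX/DOCA ITF2357, UNX/DOCA vehicle (labelled vehicle) and Sham vehicle (labelled Sham); the black bar is the mean with its SD. For Loxl1, Loxl2, Loxl3 and Serpinh1 all ITF2357 points lie under all UNX/DOCA vehicle points.

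The lysyl hydroxylases set how collagen will later be cross-linked, Plod1 mainly in the triple helix and Plod2 in the telopeptides, while Plod3 also adds glucose to galactosylated hydroxylysine. Plod1 stood at 102, 123, 102 and 100.005 CPM in UNX/DOCA ITF2357, at 108, 106, 129 and 103 CPM in UNX/DOCA vehicle and at 102, 109, 93.7 and 113 CPM in Sham vehicle. It varied little between libraries, and its ITF2357 against UNX/DOCA vehicle log2 fold change was -0.07 with a 95% interval from -0.27 to 0.14. Plod2 stood at 33.2, 40.1, 34.4 and 34.5 CPM in UNX/DOCA ITF2357, at 27.1, 45.4, 31.5 and 38.5 CPM in UNX/DOCA vehicle and at 25.9, 27.5, 33.7 and 29.8 CPM in Sham vehicle. The UNX/DOCA vehicle libraries spread on both sides of the ITF2357 libraries, and the log2 fold change was -0.00 with an interval from -0.31 to 0.30.

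Plod3 stood at 29.1, 34.9, 29.2 and 32.5 CPM in UNX/DOCA ITF2357, at 29.9, 36.9, 52.7 and 38.7 CPM in UNX/DOCA vehicle and at 30.1, 31.9, 25.99 and 28.8 CPM in Sham vehicle. Replicate 3 of UNX/DOCA vehicle was the highest, replicate 1 of that group lay within the ITF2357 range, and the log2 fold change of -0.33 ± 0.14 did not pass (edgeR adjusted p = 0.231). Of the Plod3 exons 11.71% overlap Znhit1 on the opposite strand, with the same limit as for Loxl3. P4ha1, the catalytic subunit of the prolyl 4-hydroxylase that stabilises the triple helix, stood at 55.0, 81.3, 78.4 and 67.7 CPM in UNX/DOCA ITF2357, at 99.2, 84.8, 82.6 and 71.5 CPM in UNX/DOCA vehicle and at 69.1, 93.1, 66.5 and 88.1 CPM in Sham vehicle. Its groups overlapped, and the log2 fold change of -0.26 ± 0.15 did not pass (edgeR adjusted p = 0.358).

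Serpinh1 encodes HSP47, the endoplasmic reticulum chaperone that binds folded procollagen. It stood at 121, 123, 126 and 103 CPM in UNX/DOCA ITF2357, at 199, 162, 169 and 135 CPM in UNX/DOCA vehicle and at 194, 201, 136 and 200.3 CPM in Sham vehicle. Every ITF2357 library was below every library of both other groups, and the vehicle groups overlapped. Against UNX/DOCA vehicle the log2 fold change was -0.49 ± 0.14, which did not pass (SE, edgeR adjusted p = 0.0961), although DESeq2 called it (adjusted p = 0.0284).

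UNX/DOCA vehicle was compared with Sham vehicle to ask what the surgery did to the same genes. None of the 10 was called, and neither was any other gene: edgeR called 0 of 10 members and 0% of all genes higher, and 0 of 10 and 0% lower, the smallest adjusted p over all genes being 0.0649. At an unadjusted p below 0.05, 4 of 10 members were higher and 0 lower, where 9.42% of all genes were higher and 6.47% lower. The log2 fold change was above 0 for 9 of 10 members (51.1% of all genes), with a median of 0.31 against 0.01 over all genes. DESeq2 and limma-voom called 375 and 356 genes higher and 177 and 203 lower, and each called 1 of the 10, Loxl2.

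The 4 members with an unadjusted p below 0.05 were Loxl2, Plod3, Loxl1 and Lox. Loxl2 was at 26.6 ± 5.01 CPM in UNX/DOCA vehicle and 15.7 ± 3.08 CPM in Sham vehicle (SD, n = 4 each), a log2 fold change of 0.76 ± 0.18 (edgeR adjusted p = 0.108, DESeq2 adjusted p = 0.00783, limma-voom adjusted p = 0.0460). It was the only one of the 10 whose UNX/DOCA vehicle libraries were all above those of Sham vehicle, which 5.03% of all genes were, while 4.36% were all below. Plod3 averaged 39.6 ± 9.54 CPM in UNX/DOCA vehicle and 29.2 ± 2.48 CPM in Sham vehicle, a log2 fold change of 0.44 ± 0.14 (edgeR adjusted p = 0.184). Without UNX/DOCA vehicle replicate 1, its lowest library, the adjusted p was 0.0465, and without UNX/DOCA vehicle replicates 3 and 4, its highest, the log2 fold change was 0.19 (adjusted p = 0.786). The fit without replicate 1 was not particular to Plod3: over all genes edgeR called 274 higher and 106 lower, against 0 and 0 with all libraries. Lox averaged 10.4 ± 2.88 CPM in UNX/DOCA vehicle and 5.63 ± 1.78 CPM in Sham vehicle, and the highest Sham vehicle library, replicate 3, lay just above the lowest UNX/DOCA vehicle library. Its log2 fold change of 0.89 ± 0.41 had an edgeR adjusted p of 0.314, and that of Loxl1 was 0.33 ± 0.14 with an adjusted p of 0.282. Serpinh1 was the exception in sign, at -0.13 with a 95% interval from -0.43 to 0.16.

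UNX/DOCA ITF2357 was also set against Sham vehicle, a comparison in which surgery and drug differ together. Here Serpinh1 was lower and no other member passed: 0 of 10 were called higher, where 0.913% of all genes were, and 1 of 10 lower, where 0.842% were. At an unadjusted p below 0.05, 0 of 10 were higher and 2 of 10 lower, Serpinh1 and Loxl1, where 10.7% of all genes were higher and 9.39% lower. Serpinh1 was also the 1 member of 10 whose groups did not overlap, with ITF2357 below, where 6.39% of all genes were below and 7.27% above. The median log2 fold change of the members was -0.07, against 0.01 over all genes.

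Serpinh1 fell by 0.63 ± 0.14 on the log2 scale (SE, edgeR adjusted p = 0.0418), to 118 ± 10.6 CPM in UNX/DOCA ITF2357 against 183 ± 31.5 CPM in Sham vehicle (SD, n = 4 each). The call was lost, at adjusted p between 0.0539 and 0.124, without any one of UNX/DOCA ITF2357 replicates 1, 2, 3 and 4, UNX/DOCA vehicle replicate 2 or Sham vehicle replicates 1, 2 and 4. Over the 12 fits without 1 library, its log2 fold change stayed between -0.76 and -0.58. Library totals in place of TMM also ended the Serpinh1 call (adjusted p = 0.0640). Loxl1 was at -0.33 ± 0.14 (edgeR adjusted p = 0.219), and Loxl2 at -0.22 with a 95% interval from -0.61 to 0.17. Lox, Loxl4 and Plod2 had log2 fold changes of 0.80 ± 0.41, 0.40 ± 0.32 and 0.28 ± 0.14, none of which passed (edgeR adjusted p = 0.295, 0.529 and 0.284). The 3 comparisons share libraries pairwise, so their values for a gene are not independent of each other.

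**Figure D3:**
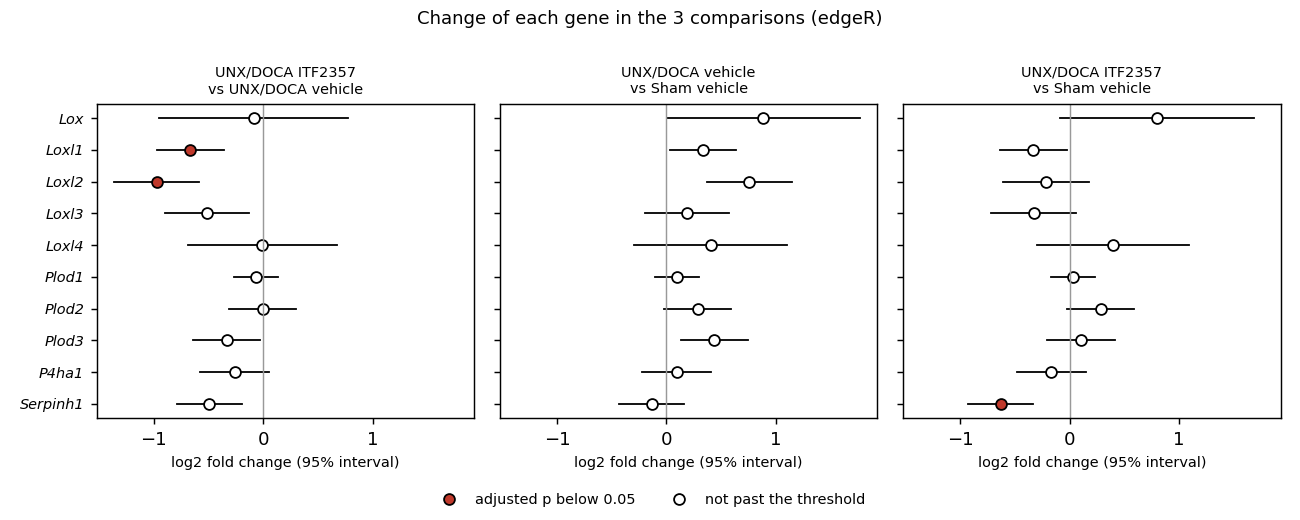
Log2 fold change of each gene with its 95% interval in the 3 comparisons, from edgeR; filled points passed an adjusted p of 0.05. Loxl1 (-0.67) and Loxl2 (-0.97) are filled for UNX/DOCA ITF2357 against UNX/DOCA vehicle, none is filled for UNX/DOCA vehicle against Sham vehicle, and Serpinh1 (-0.63) is filled for UNX/DOCA ITF2357 against Sham vehicle.

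RefSeq promoter sequence (GRCm38.p6, 250 bases before to 50 after the start) was at hand for 5 of the 10 genes, Plod1, Plod3, P4ha1, Serpinh1 and Loxl4. That of Serpinh1 (chr7:99353190-99353489, minus strand) is shown because this gene is the most abundant of the set and the one called against Sham vehicle. Of the 6 motifs searched, 2 occur in it: capitals mark the GC box GGGCGG and the hypoxia core ACGTG, which lies on the reverse strand and so reads CACGT.
Serpinh1: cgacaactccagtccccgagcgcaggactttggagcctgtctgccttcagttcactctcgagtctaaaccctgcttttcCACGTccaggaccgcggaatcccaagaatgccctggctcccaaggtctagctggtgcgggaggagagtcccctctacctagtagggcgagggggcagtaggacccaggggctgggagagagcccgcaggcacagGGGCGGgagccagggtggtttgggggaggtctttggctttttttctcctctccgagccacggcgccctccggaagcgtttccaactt
Both strands were searched and the 2 marked motifs do not overlap. GGGCGG, at position -37 from the start here, is in 35.7% of the 32851 mouse promoter windows of this length, and in those of Plod1, P4ha1, Serpinh1 and Loxl4. ACGTG, at position -171 here, is in 19.6% of windows, and in those of Plod3, P4ha1 and Serpinh1. The other hypoxia core searched, GCGTG (32.4% of windows), was not in this window and was in those of Plod1, Plod3, P4ha1 and Loxl4. TATAAA (13.6%) was in those of Plod1 and P4ha1. The heat shock element GAANNTTC (7.86% of windows) was found in this set for Plod1, and CCAAT (37.4%) for Plod3. These matches describe letters and do not show that a factor binds.

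Because collagen transcripts themselves differed between libraries, each gene was also set against the summed reads of Col1a1, Col1a2 and Col3a1, the main fibrillar collagen chains of the heart. Col3a1 averaged 117 ± 24.4 CPM in UNX/DOCA ITF2357, 234 ± 70.4 in UNX/DOCA vehicle against 158 ± 31.5 in Sham vehicle. Its log2 fold change with ITF2357 against UNX/DOCA vehicle was -0.999 ± 0.22, which did not pass (edgeR adjusted p = 0.0584). For every 1000 collagen reads, Plod1 had 584, 404, 442 and 422 reads in UNX/DOCA ITF2357, 241, 368, 215 and 286 in UNX/DOCA vehicle and 331, 331, 367 and 320 in Sham vehicle. All ITF2357 libraries lay above all libraries of both other groups. In CPM, Plod1 overlapped between groups, with log2 fold changes of -0.07 against UNX/DOCA vehicle and 0.03 against Sham vehicle. The ratio also moves with the collagen reads under it, so it does not describe Plod1 alone. The share of all genes without overlap on this scale was not computed.

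The log2 ratio of Plod1 to collagen was higher by 0.75 in UNX/DOCA ITF2357 than in UNX/DOCA vehicle and by 0.44 than in Sham vehicle (exact two-sided permutation p = 0.0286 each, the smallest that 4 against 4 allows). Plod2 and Plod3 per collagen read were also above in every ITF2357 library against Sham vehicle, by 0.70 and 0.52 (exact permutation p = 0.0286 each). Adjusted over the 30 ratios tested, no ratio passed (lowest adjusted p = 0.214, exact permutation). With that smallest possible p, a ratio could pass only if most of the 30 reached it. The adjusted values therefore cannot decide for a single gene. Loxl2, by contrast, had a difference of -0.15 between UNX/DOCA ITF2357 and UNX/DOCA vehicle (exact permutation p = 0.286), and Loxl1 one of 0.17 (exact permutation p = 0.429). On this scale the groups overlapped for both genes, although both were called in CPM.

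**Figure D4:**
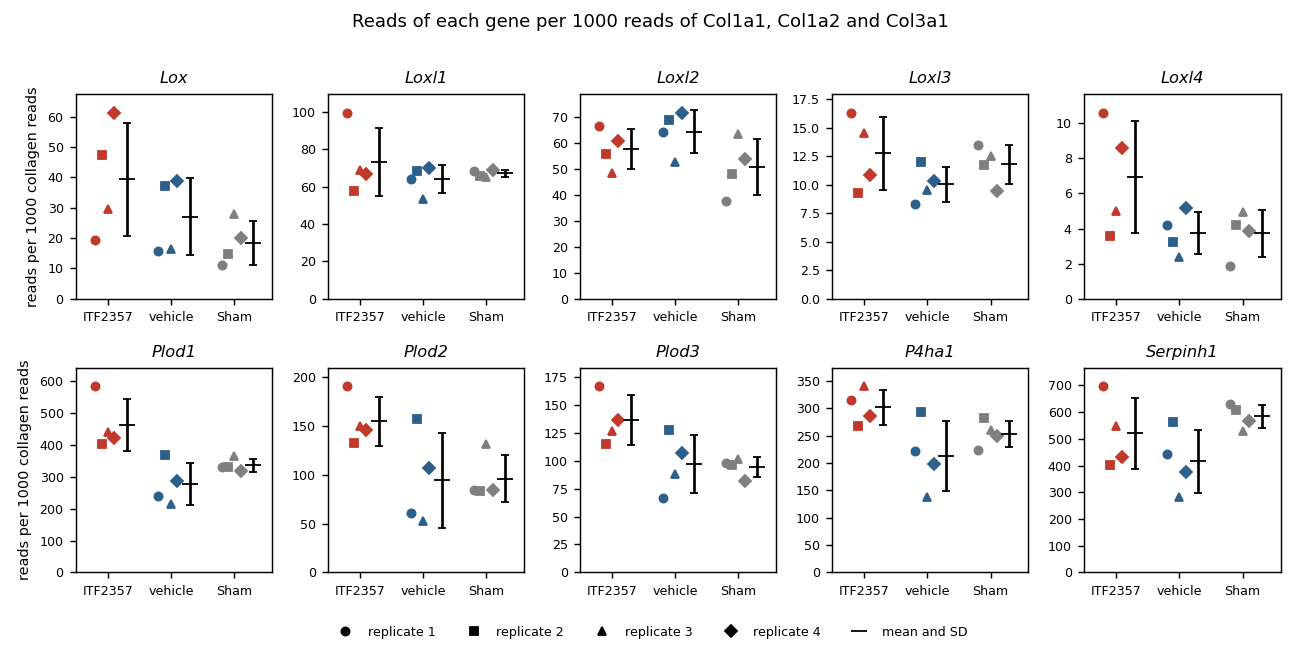
Reads of each gene per 1000 summed reads of Col1a1, Col1a2 and Col3a1 in every library, with 1 symbol per replicate and the mean with its SD in black. Plod1 lies between 404 and 584 in UNX/DOCA ITF2357, above the UNX/DOCA vehicle (labelled vehicle) and Sham vehicle (labelled Sham) libraries, while Loxl1 and Loxl2 overlap between groups.

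The other enzymes that modify or process collagen, a list of 22 genes that were all tested, gave 0 calls in each of the 3 comparisons by edgeR. For UNX/DOCA ITF2357 against UNX/DOCA vehicle DESeq2 called 1 lower (Pcolce) and limma-voom 0. For UNX/DOCA vehicle against Sham vehicle DESeq2 called 2 higher (P3h2 and Pcolce) and limma-voom 1 (Tgm2). For UNX/DOCA ITF2357 against Sham vehicle both called P3h2 and Tll1 higher, and limma-voom also Tgm2. At an unadjusted p below 0.05 there were 3 higher and 5 lower for UNX/DOCA ITF2357 against UNX/DOCA vehicle, with a median log2 fold change of -0.12, 5 higher and 2 lower for UNX/DOCA vehicle against Sham vehicle, with a median of 0.17, and 3 higher and 1 lower for UNX/DOCA ITF2357 against Sham vehicle, with a median of -0.04. Of all genes, 8.7% were higher and 9.8% lower at that p in the first comparison. In the other comparisons the shares were 9.42% and 6.47%, and 10.7% and 9.39%. Pcolce, which enhances cleavage of the procollagen C-propeptide, averaged 36.6 ± 3.17 CPM in UNX/DOCA ITF2357, 53.2 ± 12.1 in UNX/DOCA vehicle against 37.8 ± 3.38 in Sham vehicle. Its UNX/DOCA vehicle libraries were all above those of both other groups, but it passed in neither comparison (edgeR adjusted p = 0.0730 for ITF2357 against UNX/DOCA vehicle, 0.133 for UNX/DOCA vehicle against Sham vehicle). Adamts2, which removes the N-propeptide, had a log2 fold change of -0.42 ± 0.14 with ITF2357 against UNX/DOCA vehicle (edgeR adjusted p = 0.151). Tgm2, a transglutaminase that cross-links matrix proteins by another chemistry, had -0.05 in that comparison and 0.46 ± 0.14 for UNX/DOCA vehicle against Sham vehicle (edgeR adjusted p = 0.160).

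Of the fibrillar collagens 7 of 9 were tested, and edgeR called 0 in any comparison. With ITF2357 against UNX/DOCA vehicle 5 of the 7 were lower and 0 higher at an unadjusted p below 0.05, with a median log2 fold change of -0.58, and DESeq2 called 4 lower (Col1a1, Col3a1, Col5a1 and Col5a2) and limma-voom 0. Of all genes, 9.8% were lower at that p, and DESeq2 called 499 lower against 75 by edgeR. At that unadjusted p, 2 of the 7 were higher and 1 lower for UNX/DOCA vehicle against Sham vehicle, where DESeq2 and limma-voom called Col11a2 lower, and 0 higher and 3 lower for UNX/DOCA ITF2357 against Sham vehicle, where DESeq2 called 0 and limma-voom Col5a1 and Col11a2 lower. Among the elastic fibre and fibril partners of lysyl oxidases, 11 of 12 tested, Fbn1 fell and Thbs2 rose with ITF2357 against UNX/DOCA vehicle. Fbn1, the main microfibril protein of elastic fibres, averaged 52.5 ± 9.88 CPM in UNX/DOCA ITF2357 and 115 ± 32.5 CPM in UNX/DOCA vehicle, a log2 fold change of -1.13 ± 0.22 (SE, edgeR adjusted p = 0.0395). Thbs2, a matricellular thrombospondin that affects fibril assembly, averaged 30.9 ± 6.88 CPM in UNX/DOCA ITF2357 and 14.8 ± 1.97 CPM in UNX/DOCA vehicle, a log2 fold change of 1.06 ± 0.19 (SE, edgeR adjusted p = 0.0349). Leaving out 1 library at a time, Fbn1 stayed called only without UNX/DOCA ITF2357 replicate 2, UNX/DOCA vehicle replicate 2 or Sham vehicle replicate 1, and otherwise had an adjusted p of up to 0.120. Thbs2 stayed called without UNX/DOCA ITF2357 replicate 2, UNX/DOCA vehicle replicates 1 or 2 or Sham vehicle replicates 3 or 4, and otherwise had one of up to 0.112. Both calls were also lost in a fit of only the 2 groups (adjusted p = 0.120 for Fbn1 and 0.0689 for Thbs2), with the replicate block (0.0844 and 0.0621) and without UNX/DOCA vehicle replicates 3 and 4 together (0.266 and 0.254), and that of Fbn1 with no filter on low counts (0.101). Eln, the gene of elastin, had a log2 fold change of 0.19 ± 0.23 in the same comparison, in which its groups overlapped.

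Lists for hypoxia-responsive genes, TGF-beta, protein folding in the endoplasmic reticulum and copper supply were read off because these conditions and cofactors are known to regulate or supply the enzymes. Of 14 hypoxia-responsive genes, edgeR called 1: Ldha, lactate dehydrogenase A, fell with ITF2357 against UNX/DOCA vehicle by 0.29 ± 0.06 on the log2 scale (edgeR adjusted p = 0.0422). Without 1 library it stayed called only when UNX/DOCA vehicle replicate 1 was left out, and otherwise had an adjusted p of up to 0.123. It was lost as well under upper-quartile scaling (0.0631), with no filter (0.0700), in a fit of only the 2 groups (0.147), with the replicate block (0.0621) and without UNX/DOCA vehicle replicates 3 and 4 together (0.238). For UNX/DOCA ITF2357 against Sham vehicle, DESeq2 and limma-voom each called Bnip3 and Ankrd37 higher and Ldha lower, and for UNX/DOCA vehicle against Sham vehicle each called Egln1 lower, where edgeR called 0 of the 14 in both. By edgeR, 3 were higher and 2 lower at an unadjusted p below 0.05 in the first of these, and 2 higher and 1 lower in the second. Of 11 TGF-beta ligands and responsive genes and of 12 folding genes, 0 were called in any of the 3 comparisons by edgeR. At an unadjusted p below 0.05, 5 of the 11 TGF-beta genes were higher and 0 lower in UNX/DOCA vehicle against Sham vehicle, where DESeq2 called 1 (Inhba) and limma-voom 0. Of all genes, 9.42% were higher and 6.47% lower at that p. With ITF2357, 1 of the 11 was higher against UNX/DOCA vehicle and 3 against Sham vehicle, with 0 lower in either and 0 called by either tool. The median log2 fold change of the 11 was -0.37 for ITF2357 against UNX/DOCA vehicle, with 2 of them above 0. It was 0.50 for UNX/DOCA vehicle against Sham vehicle and 0.13 for UNX/DOCA ITF2357 against Sham vehicle. The folding genes, Serpinh1 not among them, had a median log2 fold change of 0.01 for ITF2357 against UNX/DOCA vehicle and 0.10 against Sham vehicle. By edgeR at an unadjusted p below 0.05, 1 of 12 was higher with ITF2357 against UNX/DOCA vehicle and 3 of 12 against Sham vehicle, 1 was higher in UNX/DOCA vehicle against Sham vehicle, and 0 were lower in any. DESeq2 called 0 of the 12 in each comparison, and limma-voom 1, Dnajb9, higher in UNX/DOCA ITF2357 against Sham vehicle. Of 5 copper supply genes, Atox1, a copper chaperone, rose in UNX/DOCA ITF2357 against Sham vehicle by 0.36 ± 0.08 on the log2 scale (edgeR adjusted p = 0.0418). It stayed called without UNX/DOCA vehicle replicates 1 or 3 and had an adjusted p of up to 0.129 without another single library. The call was lost with library totals (0.0645), with no filter (0.145) and with the replicate block (0.0672).

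Genes that varied most like the called members were found by Pearson correlation of log2 CPM over the 12 libraries among 9578 genes of at least 5 CPM. For Loxl2 these were Col4a1 (r = 0.971, Spearman's rho = 0.979) and Col4a2 (r = 0.962, rho = 0.972), the chains of the main basement membrane collagen, and Rad23b (r = 0.928, rho = 0.874). Col4a1 averaged 299.8 ± 74.8 CPM in UNX/DOCA ITF2357, 528 ± 66.3 in UNX/DOCA vehicle against 350.5 ± 46.6 in Sham vehicle. It fell by 0.82 ± 0.16 on the log2 scale with ITF2357 against UNX/DOCA vehicle (SE, edgeR adjusted p = 0.0395), and had 0.59 ± 0.16 for UNX/DOCA vehicle against Sham vehicle (edgeR adjusted p = 0.133, DESeq2 0.0254, limma-voom 0.0478). Col4a2 likewise fell with ITF2357, by 0.75 ± 0.16 (edgeR adjusted p = 0.0496). Leaving out single libraries, both stayed called only without UNX/DOCA ITF2357 replicate 2 or UNX/DOCA vehicle replicate 2, and otherwise had an adjusted p of up to 0.119 for Col4a1 and 0.126 for Col4a2. Both were also lost with no filter (0.0909 and 0.0884), in a fit of only the 2 groups (0.132 and 0.147), with the replicate block (0.0713 and 0.0888) and without UNX/DOCA vehicle replicates 3 and 4 together (0.254 and 0.272), and Col4a2 under RLE scaling (0.0505) and library totals (0.0518). For Loxl1 the closest were Glipr2 (r = 0.944), Mob3a (r = 0.933) and Cers2 (r = 0.932), and for Serpinh1 Ttc17 (r = 0.962), Sac3d1 (r = 0.951) and Myo18a (r = 0.942). The correlations run over 3 groups at once and are ranks picked from many genes, so they carry no test.

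**Figure D5:**
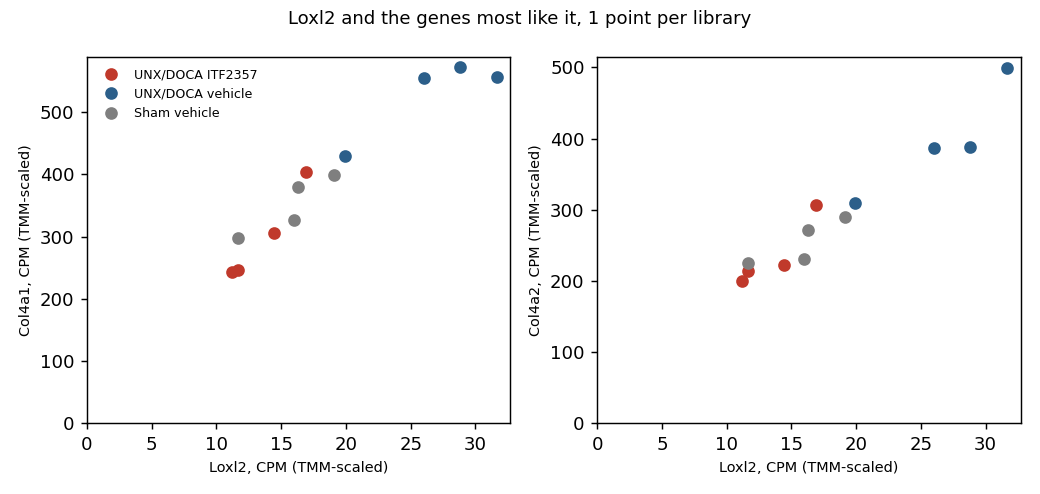
TMM-scaled CPM of Col4a1 (left) and Col4a2 (right) against Loxl2, with 1 point per library. The UNX/DOCA vehicle libraries hold the highest Loxl2 levels, from 19.9 to 31.7 CPM, and the UNX/DOCA ITF2357 and Sham vehicle libraries share the lower range.

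The 10 genes did not vary as a block. Over the 12 libraries Loxl1 correlated with Loxl2 (r = 0.83) and Loxl3 (r = 0.79), whereas Plod2 correlated with Lox (r = 0.66) and went opposite to Serpinh1 (r = -0.60). After the group means were taken out, Loxl1 and Loxl2 stood at r = 0.56, Plod2 and Lox at 0.55, Plod2 and Serpinh1 at -0.58, and Loxl1 and Plod2 at -0.69. These values share library depth and scaling, rest on 12 libraries and are given as description.

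The libraries held 23.4 to 34.9 M counts each. Markers of the left ventricle's cells were present as the tissue label gives: 7 cardiomyocyte genes summed to 48622 to 53735 CPM in UNX/DOCA ITF2357, 47245 to 55293 in UNX/DOCA vehicle and 50098 to 61190 in Sham vehicle. Of these 7, edgeR called Mybpc3 lower in UNX/DOCA ITF2357 against Sham vehicle (edgeR adjusted p = 0.0480), where 2 of the 7 had a log2 fold change above 0. DESeq2 called Mybpc3 and Tnni3 lower there, and limma-voom these and Ryr2. For UNX/DOCA vehicle against Sham vehicle, 0 of the 7 were above 0, edgeR called 0 and limma-voom called Ryr2 lower. The 7 general fibroblast markers summed to 923 to 1144 CPM in UNX/DOCA ITF2357, 955 to 1286 in UNX/DOCA vehicle and 986 to 1172 in Sham vehicle. Gsn alone averaged 847, 836 and 918 CPM in these groups, so the sums mostly follow it. Of the 6 tested, 3 were higher and 0 lower in UNX/DOCA vehicle against Sham vehicle by edgeR at an unadjusted p below 0.05. DESeq2 and limma-voom called Mfap5 and Pi16 of them higher, and edgeR called 0. With ITF2357 against UNX/DOCA vehicle, 1 was lower and 0 higher at that p: Mfap5, which DESeq2 called lower and limma-voom did not. The 6 activated fibroblast markers summed to 129 to 321 CPM in UNX/DOCA ITF2357, 325 to 516 in UNX/DOCA vehicle and 253 to 448 in Sham vehicle. Acta2 alone averaged 149, 307 and 288 CPM in these groups, where the mean sums were 213, 402 and 339 CPM. Among the tested markers of this list, Acta2 was the only one whose ITF2357 libraries were all below those of UNX/DOCA vehicle. Of the 5 of these that were tested, edgeR and limma-voom called 0 in any comparison, while DESeq2 called Acta2 lower with ITF2357 against both other groups and Postn higher in UNX/DOCA vehicle against Sham vehicle. By edgeR, Acta2 was lower with ITF2357 against both at an unadjusted p below 0.05, and Postn and Cilp higher in UNX/DOCA vehicle against Sham vehicle. Their part in the Loxl1 and Loxl2 values was not tested. The 5 neutrophil markers summed to 4.58 to 26.4 CPM in UNX/DOCA ITF2357, to 22.9, 3.78, 470.2 and 151 CPM in UNX/DOCA vehicle replicates 1 to 4, and to 13.0 to 41.9 CPM in Sham vehicle. The 7 macrophage markers summed to 169 to 297 CPM in UNX/DOCA ITF2357, 172 to 481 in UNX/DOCA vehicle and 164 to 213 in Sham vehicle, highest in the same replicates 3 and 4. Of the neutrophil and macrophage markers, edgeR called 0 in any comparison. At an unadjusted p below 0.05, 5 of 5 neutrophil and 1 of 7 macrophage markers were lower with ITF2357 against UNX/DOCA vehicle. In UNX/DOCA vehicle against Sham vehicle, 5 of 7 macrophage and 1 of 5 neutrophil markers were higher at that p. DESeq2 called S100a8, S100a9 and Retnlg lower in the first comparison and C1qb higher in the second, and limma-voom called 0. The 6 endothelial markers summed to 561 to 878 CPM in UNX/DOCA ITF2357, 740 to 814 in UNX/DOCA vehicle and 650 to 769 in Sham vehicle. The 7 smooth muscle and pericyte markers summed to 1025 to 1186, 962 to 1052 and 1090 to 1170 CPM in the same order of groups. Of these endothelial, smooth muscle and pericyte markers, edgeR called 0 in any comparison. For UNX/DOCA vehicle against Sham vehicle limma-voom called Pecam1 higher, DESeq2 called Cnn1 higher, and both called Abcc9 lower. For UNX/DOCA ITF2357 against Sham vehicle DESeq2 called Cnn1 higher and limma-voom Kdr and Abcc9 lower. The 5 valve and tendon markers summed to 11.97 to 16.7 CPM in UNX/DOCA ITF2357, 18.2 to 22.9 in UNX/DOCA vehicle and 10.3 to 13.5 in Sham vehicle. As for Loxl2, every UNX/DOCA vehicle library was above those of both other groups. The mean sums of both fibroblast lists and of the macrophage, neutrophil and endothelial markers were also highest in UNX/DOCA vehicle, but with overlap. Of the 5 valve and tendon markers, 2 had enough counts to be tested, Scx and Thbs4, and edgeR called 0 of them in any comparison. These 2 averaged 8.21 and 12.5 CPM in UNX/DOCA vehicle, where the mean sum was 21.1 CPM, so the sum mostly follows them. DESeq2 called both lower with ITF2357 against UNX/DOCA vehicle, and Scx higher in both UNX/DOCA groups against Sham vehicle. Against Sham vehicle, limma-voom called Scx higher in UNX/DOCA vehicle. The part of the endothelial, smooth muscle and valve markers in the Loxl2 values was not tested.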

How the data were processed

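Left ventricular RNA of 12 mice was sequenced as poly(A)-selected, strand-specific libraries with paired reads of 150 bases, per the labels' protocols. The authors deposited unnormalized whole-number counts, 1 row per Ensembl gene. FastQC 0.11.9, STAR 2.7.10b and the mm39 build are named in the submitters' processing notes, while the sources used here name no counting tool, strand setting or annotation. Symbols, exon lengths and coordinates came from GENCODE M21 (GRCm38) by Ensembl identifier, and coordinates are those of GRCm38. Rows matched to a symbol took 99.1664% or more of the counts in each library. Titles name all 4 drug libraries ITF2357, while a treatment field numbers them differently; the titles were used.

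The test was that of edgeR 4.0.16, run under R 4.3.3: filterByExpr at 10 counts, TMM, and a robust quasi-likelihood fit of the 3 groups on all 12 libraries together (9 residual degrees of freedom). P values were adjusted by Benjamini-Hochberg over 16981 genes per comparison at a threshold of 0.05. Each standard error is the fold change on the log2 scale over the root of its F. The procedure was tested on simulated data. Per the labels, replicates are different animals. Ratios to collagen used log2 of counts plus 0.5 and exact permutation tests. All 10 genes were named in every comparison, with up to 3 genes per list by smallest p and the 3 genes most like each called member. The genes, lists and alternatives were chosen with earlier results of these data known. Alternatives were RLE and upper-quartile scaling, library totals, DESeq2 1.42.0, voom with sample weights from limma 3.58.1, leaving out the filter or asking for 1 CPM in 4 libraries instead, only the 2 groups compared, a replicate block, and libraries left out.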

Additional observations from a re-analysis of the deposited data

Results flagged for a closer look

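Among the 10 genes and 3 groups, 4 of 30 gene and group combinations had a library far from the other 3 of its group by Dixon's criterion, and chance flags about 1 in 20 such groups. Loxl3 in UNX/DOCA vehicle replicate 3 was at 5.73 CPM, against 3.46 to 3.74 in the other libraries of the group, and this library also held the highest neutrophil marker sum, 470.2 CPM. Plod1 in UNX/DOCA ITF2357 replicate 2 was at 123 CPM, against 100.005 to 102 in the others. Serpinh1 in Sham vehicle replicate 3 was at 136 CPM, against 194 to 201 in the others. Loxl4 in Sham vehicle replicate 1 was at 0.570 CPM, against 1.27 to 1.40 in the others.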

How the results depend on the processing

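For UNX/DOCA ITF2357 against UNX/DOCA vehicle, where 2 of the 10 genes were called, 1 was called under RLE scaling, upper-quartile scaling, library totals or limma-voom (Loxl2 each time, Loxl1 being lost), 0 in a fit of only the 2 groups, 0 with the replicate block, 0 without UNX/DOCA vehicle replicates 3 and 4 together, and 0 to 2 when single libraries were left out. For UNX/DOCA vehicle against Sham vehicle, where 0 were called, 1 was called with no filter, DESeq2 or limma-voom (Loxl2 each time), and 0 to 1 when single libraries were left out (Plod3 without UNX/DOCA vehicle replicate 1). For UNX/DOCA ITF2357 against Sham vehicle, where 1 was called, 0 were called with library totals, 0 with the replicate block, and 0 to 1 when single libraries were left out. The cause was not tested. Over all 3 comparisons, 617 of the 660 alternative log2 fold changes of the 10 genes stayed on their side of the threshold, 38 lost a call and 5 gained one. Most of the 660 were of values not called in the main fit, which had no call to lose. All 38 losses fell on the calls of Loxl1, Loxl2 and Serpinh1. With single libraries left out, Loxl1 lost its call in 11 of 12 fits, Loxl2 in 7 and Serpinh1, against Sham vehicle, in 8. In these fits the calls over all genes moved too. For UNX/DOCA ITF2357 against UNX/DOCA vehicle they ran from 7 higher and 7 lower to 105 and 138. They ran from 0 and 0 to 274 and 106 for UNX/DOCA vehicle against Sham vehicle. The range was 9 and 8 to 292 and 324 for UNX/DOCA ITF2357 against Sham vehicle. Of the 660 values, the sign changed in 24, with 0 of these past the threshold in either fit. Replicate numbers are not stated to pair animals. Over 12 pairs of libraries with the same number, centred expression correlated between -0.19 and 0.25 (median 0.00). These pairs share libraries, so the values cannot decide whether the numbers pair animals. The replicate block gave edgeR adjusted p values of 0.0621 for Loxl2, 0.0864 for Loxl1 and 0.0561 for Serpinh1 against Sham vehicle, ended the calls of Fbn1, Thbs2, Ldha, Col4a1, Col4a2 and Atox1, and over all genes 28 higher and 40 lower, 26 and 5, and 90 and 102 in the 3 comparisons in the order above, against 78 and 75, 0 and 0, and 155 and 143 without it. DESeq2 called 358 higher and 499 lower, 375 and 177, and 515 and 550, limma-voom 126 and 113, 356 and 203, and 802 and 726, and the fit of only the 2 groups 5 and 0, 0 and 0, and 248 and 227. With no filter these were 155 and 197, 125 and 85, and 161 and 249, with upper-quartile scaling 108 and 65, 6 and 1, and 214 and 89, and with library totals 57 and 62, 0 and 0, and 172 and 98. Depth was lowest for Loxl4 and Loxl3, the least abundant of the 10; the standard error of the log2 fold change for UNX/DOCA ITF2357 against UNX/DOCA vehicle was largest for Lox (0.40), then Loxl4 (0.32).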
